A study of Homo sapiens with 10 samples.

Results

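Epithelial cells are held to each other by tight junctions and desmosomes, and they sort their surfaces with polarity complexes. The 40 genes described here encode parts of these structures and the regulators, adhesion molecules and surface proteases that mark epithelial cells. They were chosen by gene symbol, and all 40 were found among the 52402 gene symbols of the count tables. A symbol listed in more than 1 row (OCLN, MARVELD2 and TJP1) was summed over its rows. Of the 40 genes, 29 passed the filter on low counts and were tested, and 11 did not.

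The genes were measured by mRNA-sequencing in BEAS2B, a human bronchial epithelial cell line labelled as wild type. All 5 groups were treated with Lipofectamine 2000 and differed in the RNA delivered: a scrambled miRNA control (miRcontrol), a mimic of miR-3124-5p (miR3124_mimic), a mimic of miR-200b-3p (miR200b_mimic), an inhibitor of miR-92b (miR92b_inhibitor), or all 3 at once (the 3-miRNA mixed group). The final concentration was 50 nM for each single RNA and RNA was taken after 48 h. The amount of each RNA in the 3-miRNA mixed group was not given in the sources used here. Every group had 2 libraries. Nothing in the labels says that these came from separate transfections, so the p-values measure the spread between these libraries, which may be technical. All values come from 1 cell line, and a transfected mimic is delivered on top of what the cell itself makes.

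Members of the miR-200 family are known for binding the mRNAs of ZEB1 and ZEB2, a pair of zinc-finger factors that occupy E-box motifs in the promoters of epithelial genes and hold them silent. Tight junctions are built from claudins, occludin and related membrane proteins, which are tied to the cytoskeleton by zonula occludens proteins and cingulin. The Crumbs and Par complexes set the apical side of the cell, and Lgl proteins act on the basolateral side. Desmosomes join the keratin filaments of neighbouring cells through plakoglobin, plakophilins and plakins.

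The mature miRNA sequences are shown because their seeds, bases 2 to 8 in capitals, define which mRNAs pair with them. Sequences and positions come from RefSeq (GRCh38.p14).
hsa-miR-200b-3p, chr1:1167160-1167181, plus strand: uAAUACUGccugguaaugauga
hsa-miR-3124-5p, chr1:248826383-248826403, plus strand: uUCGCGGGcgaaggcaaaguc
hsa-miR-92b-5p, chr1:155195196-155195217, plus strand: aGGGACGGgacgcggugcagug
hsa-miR-92b-3p, chr1:155195237-155195258, plus strand: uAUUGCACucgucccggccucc
The 4 seeds differ from each other. The sample labels name miR92b without an arm, so both arms are printed.

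The 7 bases that pair with the miR-200b-3p seed, CAGTATT, were searched for on the sense strand of the 3′UTR of each gene, using the GENCODE v29 coding transcript with the longest coding sequence. They occurred in 17.1% of the 12120 tested genes that had a 3′UTR and in 3 of the 29 tested members, or 10.3% of them, which were OCLN, PARD6B and PARD3. Of the repressors of epithelial genes listed, ZEB1 held 6 such matches, ZEB2 held 5 and SNAI2 held 1. Sites of ZEB1, of ZEB2 and of the 3 members are shown with the match in capitals (GRCh38).
ZEB1 3′UTR, chr10:31527622-31527650, plus strand: ttttatcttatCAGTATTatcactcttat
ZEB1 3′UTR, chr10:31528496-31528524, plus strand: tttttacctatCAGTATTattttatttct
ZEB2 3′UTR, chr2:144388979-144389007, minus strand: ctacaatgcatCAGTATTatgattcctct
ZEB2 3′UTR, chr2:144388536-144388564, minus strand: attaattttgtCAGTATTacaccaaactg
OCLN 3′UTR, chr5:69553799-69553827, plus strand: tttaacatcatCAGTATTgaagcatttta
PARD6B 3′UTR, chr20:50753605-50753633, plus strand: ctatcaaatgtCAGTATTttactacaatt
PARD3 3′UTR, chr10:34110008-34110036, minus strand: cactctcgcgtCAGTATTagagtgtgtgt
The match to miR-3124-5p (CCCGCGA) occurred in 0.487% of tested genes and the match to miR-92b-5p (CCGTCCC) in 3.61%, and no tested member held either. The match to miR-92b-3p (GTGCAAT) occurred in 11% of tested genes and in 4 tested members, GRHL1, OCLN, F11R and PARD6B. A match in these letters is a description of the transcript and does not show that the site was bound.

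Libraries held 13587666 to 18503890 counts, and levels are given as normalized CPM, in which the counts of each library are scaled to a common library size. Fold changes are on the log2 scale, and their p-values come from the quasi-likelihood F-test of edgeR, adjusted over 14884 genes by the Benjamini-Hochberg procedure. The floor was set at 3 counts in each library of a group, which corresponds to 0.161 to 0.224 CPM across the libraries. The epithelial label was checked against 13 bronchial markers. KRT8 and KRT18, the keratins of simple epithelia, were high at 814 ± 0.168 and 628 ± 13.2 CPM (SD, n = 2) in miRcontrol. They were at 1143 and 806 in miR3124_mimic and 1372 and 1258 in the 3-miRNA mixed group. KRT19 went the other way, from 8.20 ± 0.377 CPM in miRcontrol to 0.760 ± 0.206 and 2.62 ± 0.181 in these groups. It was at 14.4 ± 0.929 in miR200b_mimic and 5.13 ± 0.591 in miR92b_inhibitor. KRT15 was at 0.409 ± 0.0121 CPM in miRcontrol and 1.66 ± 0.338 in miR200b_mimic. Mean levels of KRT5 and NKX2-1 were at most 0.408 and 0.190 CPM in any group, and EPCAM is described below. The basal markers KRT14 and TP63 and the secretory and ciliated markers SCGB1A1, MUC5AC and FOXJ1 were at the floor in all 5 groups. CDH1 (E-cadherin) was at the floor in miRcontrol. The 7 mesenchymal markers (VIM, FN1, CDH2, COL1A1, COL1A2, PDGFRA and PDGFRB) summed to 7333 to 7355 CPM in miRcontrol, 6839 to 6986 in miR92b_inhibitor, 4982 to 5001 in the 3-miRNA mixed group, 4620 to 4676 in miR200b_mimic and 4436 to 4561 in miR3124_mimic. Of these 7, PDGFRA was at the floor in miRcontrol. Most of the sum was VIM and FN1. VIM was at 3800 ± 132 CPM in miRcontrol, 813 ± 20.1 in miR3124_mimic, 2729 ± 64.5 in the 3-miRNA mixed group and 2982 ± 13.9 in miR200b_mimic, and FN1 at 3264 ± 117, 3383 ± 74.8, 1990 ± 51.9 and 1407 ± 52.8. Other markers of this list went the other way. COL1A1 rose from 12.0 ± 1.42 CPM to 23.8 ± 1.52, 22.0 ± 0.502 and 36.9 ± 0.00902 in the same order, and PDGFRB rose from 7.63 ± 0.0191 CPM to 11.8 ± 1.81 in the 3-miRNA mixed group and 29.5 ± 2.07 in miR3124_mimic but fell to 3.04 ± 0.146 in miR200b_mimic. The part of these markers in the results was not tested. Of the blood and endothelial markers, PTPRC was at the floor in every group, LYZ in all but miR3124_mimic, and PECAM1, VWF and CDH5 summed to at most 4.78 CPM in any library. CD68, a lysosomal protein abundant in macrophages, was above the floor in every group, at 26.7 ± 0.501 CPM in miRcontrol, 39.7 ± 1.32 in miR92b_inhibitor and 18.5 ± 1.78 in miR200b_mimic. CDH5 went from 1 and 1 counts in miRcontrol to 59 and 44 in miR3124_mimic.

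Most members rose in miR200b_mimic. Against miRcontrol, 23 of the 29 tested members rose and 0 fell at an adjusted p under 0.05, where 21.4% of all tested genes rose and 19.1% fell. With a fold change of at least 2 as well, 19 members rose, against 4.88% of all tested genes in either direction. The median log2 fold change was 1.42 over the tested members and -0.0055 over all tested genes, and 6 members were not called. CRB3, EPCAM, ST14 and CDS1 passed the filter on low counts only through miR200b_mimic and the 3-miRNA mixed group, where they are high, and ELF3 only through miR200b_mimic, so their inclusion adds to the count of rises and to the median. Among the 21 members with at least 10 counts in every library, 16 rose and 0 fell, and the median was 1.30. Of the 23 calls, 15 held in each of the 11 alternative fits, and those of MARVELD3, CRB3, EPCAM, ST14 and CDS1 held in each fit that tested them. The calls of ELF3, OCLN and PARD3 were lost in at least 1 fit. A higher level in bulk RNA does not tell more cells expressing a gene from more RNA per cell.

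In the 3-miRNA mixed group most members rose too. There, 20 members rose and 2 fell (CLDN7 and EVPL), where 21.5% of all tested genes rose and 21.1% fell. At a fold change of at least 2, 13 rose and 1 fell, against 4.67% of all tested genes in either direction. The median was 0.97 over the members and 0.003 over all tested genes. Among the 21 members with at least 10 counts in every library, 16 rose and 1 fell, and the median was 0.86. The calls of JUP and EVPL were lost in at least 1 of the 11 alternative fits. Of the others, 15 held in each fit, and those of CRB3, EPCAM, ST14 and CDS1 held in each fit that tested them. The DESeq2 Wald test called 0 members lower, so the fall of CLDN7 was not called there. It held in the other fits that tested it. Both comparisons use the same miRcontrol libraries, so their values are not independent.

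miR3124_mimic split the list. In it 7 members rose and 7 fell, where 25.7% of all tested genes rose and 25.3% fell, so the share called was close to that of all genes. At a fold change of at least 2, 4 rose (GRHL1, CGN, PARD6B and PPL) and 1 fell (MARVELD2), against 8.13% of all tested genes. The 7 rises held in each of the 11 alternative fits, and of the 7 falls those of MARVELD2, PARD3 and JUP did. The median was 0.14 over the members and 0.0039 over all tested genes, and that of the members was 0.03 without replicate 2 and 0.21 without replicate 1 of miR3124_mimic.

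In miR92b_inhibitor most of the calls were lower. There, 13 members fell and 1 rose (PARD3), where 18.2% of all tested genes fell and 17.5% rose. Of these, CLDN7 passed a fold change of 2, a call lost without replicate 1 of miRcontrol or replicate 2 of miR92b_inhibitor, against 1.91% of all tested genes. The median was -0.30 over the members and -0.0061 over all tested genes. The falls of ESRP2, F11R, LLGL2, DSP, JUP, PKP3 and EVPL held in each of the 11 alternative fits, and without replicate 1 of miRcontrol the number called went from 14 to 9. The rise of PARD3, at 0.14 (SE 0.05, adjusted p = 0.0119), became 0.11 with an adjusted p of 0.148 without replicate 2 of miRcontrol and 0.12 with an adjusted p of 0.131 without replicate 1 of miR92b_inhibitor. CGN, at 0.40 (SE 0.17, adjusted p = 0.0529), was called higher with TMM normalization (adjusted p = 0.0473) and with library totals (adjusted p = 0.0499).

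**Figure D1:**
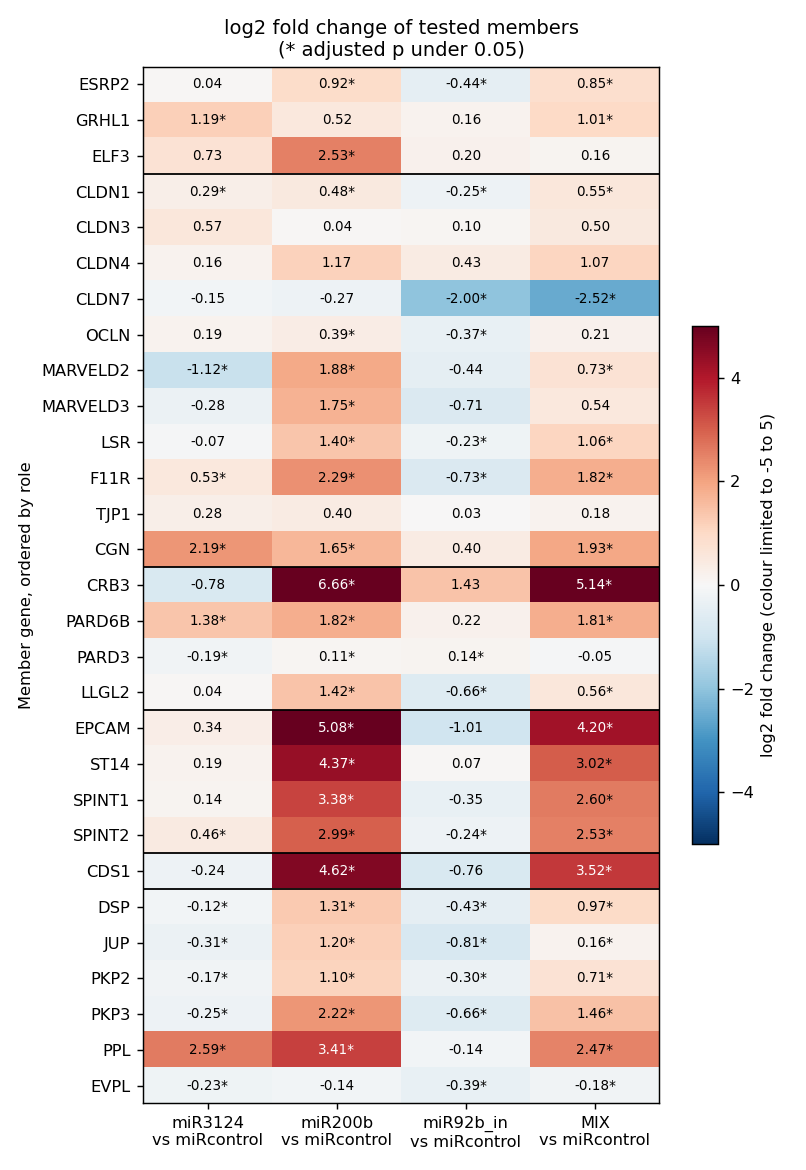
Colour and number give the log2 fold change of each of the 29 tested members (rows, ordered by role) in the 4 comparisons with miRcontrol (columns, named by the label of the transfected group), and an asterisk marks an adjusted p under 0.05. The miR200b column is red in nearly every row with CRB3 at the top of the scale, the MIX column follows it more faintly, and the miR92b_in column is mostly pale blue. The value of CRB3 is fitted against 1 count in each miRcontrol library, and that of CLDN7 in MIX rests on 3 and 2 counts.

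The transcription factors and splicing regulators were mostly silent. ESRP1 and ESRP2 direct epithelial splicing, GRHL1 to GRHL3, OVOL1 and OVOL2 are epithelial transcription factors, and ELF3 and EHF are ETS factors of epithelia. ESRP2 was the highest of the 9, with 12.8 and 13.7 CPM in miRcontrol, 24.5 and 23.3 in the 3-miRNA mixed group, 10.0 and 9.47 in miR92b_inhibitor, 13.3 and 13.8 in miR3124_mimic and 24.7 and 25.4 in miR200b_mimic. The log2 fold change was 0.92 (SE 0.10, adjusted p = 7.53e-11) in miR200b_mimic, 0.85 (SE 0.10, adjusted p = 3.69e-10) in the 3-miRNA mixed group and -0.44 (SE 0.11, adjusted p = 0.00175) in miR92b_inhibitor, and the level in miR3124_mimic overlapped that of miRcontrol. GRHL1 followed another pattern. Its levels were 1.89 and 1.91 CPM in miRcontrol, 4.31 and 3.34 in the 3-miRNA mixed group, 2.39 and 1.86 in miR92b_inhibitor, 4.58 and 4.13 in miR3124_mimic and 2.77 and 2.70 in miR200b_mimic. It rose by 1.19 (SE 0.24, adjusted p = 5.16e-05) in miR3124_mimic and by 1.01 (SE 0.24, adjusted p = 0.000661) in the 3-miRNA mixed group, while in miR200b_mimic both libraries lay above both miRcontrol libraries without passing the test (0.52 (SE 0.27, adjusted p = 0.116)). The difference between miR200b_mimic and miR3124_mimic was -0.67 (SE 0.23, adjusted p = 0.0126). This call was lost with the DESeq2 Wald test (-0.67 with an adjusted p of 0.0745). It was also lost without replicate 1 of miR3124_mimic (-0.59) and without replicate 2 of miR200b_mimic (-0.64).

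ELF3 was near the floor, with 1 and 4 counts in miRcontrol, 4 and 2 in the 3-miRNA mixed group, 2 and 4 in miR92b_inhibitor, 4 and 4 in miR3124_mimic and 13 and 14 in miR200b_mimic. Its 2 miR200b_mimic libraries stood above all 8 others. The log2 fold change there was 2.53 (SE 0.70, adjusted p = 0.00265), and it was 1.85 with an adjusted p of 0.0860 without replicate 1 of miRcontrol. In the 3-miRNA mixed group ELF3 was at 0.16 (adjusted p = 0.918). The other 6 factors were not tested. ESRP1 had counts of 0 in all libraries of miRcontrol and miR3124_mimic, 1 and 3 in the 3-miRNA mixed group, 2 and 2 in miR92b_inhibitor and 0 and 7 in miR200b_mimic. GRHL3 had 0 and 6 counts in miRcontrol, 6 and 4 in the 3-miRNA mixed group, 3 and 8 in miR92b_inhibitor, 4 and 3 in miR3124_mimic and 3 and 1 in miR200b_mimic, with no group apart from the others. OVOL2 reached 2 and 3 counts in miR200b_mimic and at most 1 elsewhere, GRHL2 had 2 counts in 1 library of the 3-miRNA mixed group and 0 in the other 9, OVOL1 never passed 1 count and EHF never passed 3.

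Among the tight junction genes, 7 of the 11 tested members rose in miR200b_mimic and 0 fell, where 21.4% of all tested genes rose and 19.1% fell. The largest rise was that of F11R, which encodes the junctional adhesion molecule JAM-A. The gene lies at chr1:160995211-161021348 (GRCh38, GENCODE v29) and stood at 44.9 and 44.2 CPM in miRcontrol, 162 and 153 in the 3-miRNA mixed group, 27.2 and 26.4 in miR92b_inhibitor, 64.6 and 64.0 in miR3124_mimic and 218 and 219 in miR200b_mimic. It was 4.90-fold higher in miR200b_mimic, with a log2 fold change of 2.29 (SE 0.05, adjusted p = 1.74e-35), and it rose by 1.82 (SE 0.05, adjusted p = 8.77e-32) in the 3-miRNA mixed group and by 0.53 (SE 0.06, adjusted p = 5.19e-11) in miR3124_mimic. It fell in miR92b_inhibitor, at -0.73 (SE 0.07, adjusted p = 9.46e-13), and the 5 groups did not overlap. A readthrough gene on the same strand shares 36.58% of the F11R exon length, so reads of the pair may have been divided by the counting.

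The tricellular junction genes rose in miR200b_mimic as well. MARVELD2 (tricellulin) was at 4.01 and 3.82 CPM in miRcontrol, 6.69 and 6.30 in the 3-miRNA mixed group, 3.15 and 2.63 in miR92b_inhibitor, 1.64 and 1.92 in miR3124_mimic and 16.6 and 12.6 in miR200b_mimic. It rose by 1.88 (SE 0.16, adjusted p = 1.53e-13) in miR200b_mimic and by 0.73 (SE 0.18, adjusted p = 0.000824) in the 3-miRNA mixed group, but it fell in miR3124_mimic, at -1.12 (SE 0.24, adjusted p = 8.66e-05). LSR (angulin-1), which recruits tricellulin to corners where cells meet, was at 24.4 and 22.6 CPM in miRcontrol, 51.5 and 46.7 in the 3-miRNA mixed group, 21.7 and 18.5 in miR92b_inhibitor, 20.8 and 23.9 in miR3124_mimic and 58.2 and 65.4 in miR200b_mimic. It rose by 1.40 (SE 0.08, adjusted p = 9.55e-20) in miR200b_mimic and by 1.06 (SE 0.08, adjusted p = 2.12e-15) in the 3-miRNA mixed group, and its miR3124_mimic libraries overlapped those of miRcontrol. MARVELD3 was low, at 0.859 and 0.716 CPM in miRcontrol, 1.44 and 0.861 in the 3-miRNA mixed group, 0.117 and 0.821 in miR92b_inhibitor, 0.683 and 0.622 in miR3124_mimic and 2.84 and 2.53 in miR200b_mimic. It rose in miR200b_mimic by 1.75 (SE 0.41, adjusted p = 0.000395), and PHLPP2 on the opposite strand shares 16.57% of its exon length. In miR92b_inhibitor its libraries differed widely, and its change was -0.71 (SE 0.54, adjusted p = 0.325), or -2.68 with an adjusted p of 0.0176 without replicate 2 of that group.

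CGN, which encodes the junction plaque protein cingulin, rose in 3 of the 4 transfected groups. It was at 4.18 and 4.72 CPM in miRcontrol, 18.1 and 15.7 in the 3-miRNA mixed group, 5.66 and 6.08 in miR92b_inhibitor, 18.8 and 21.7 in miR3124_mimic and 13.3 and 14.5 in miR200b_mimic. The rise was 2.19 (SE 0.13, adjusted p = 5.84e-19) in miR3124_mimic, 1.65 (SE 0.14, adjusted p = 1.73e-13) in miR200b_mimic and 1.93 (SE 0.14, adjusted p = 1.74e-16) in the 3-miRNA mixed group. All libraries of these groups lay above both miRcontrol libraries. The miR3124_mimic libraries were the highest, and miR200b_mimic against miR3124_mimic gave a log2 fold change of -0.54 (SE 0.11, adjusted p = 4.08e-05).

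The claudins behaved differently from each other. CLDN1, a claudin that seals the paracellular space, was abundant and rose modestly, by 0.48 (SE 0.06, adjusted p = 1.2e-09) in miR200b_mimic, 0.55 (SE 0.06, adjusted p = 1.51e-11) in the 3-miRNA mixed group and 0.29 (SE 0.06, adjusted p = 2.82e-05) in miR3124_mimic, from 66.9 and 58.4 CPM in miRcontrol. CLDN3 and CLDN4 were low. CLDN3 ranged from 0.716 to 1.19 CPM over the 10 libraries and was not called in any comparison. CLDN4 was 1.17 (SE 0.56, adjusted p = 0.0949) in miR200b_mimic, where its libraries had 21 and 9 counts, and 1.83 with an adjusted p of 0.0194 without replicate 2 of that group.

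CLDN7 was the only tested member lower than miRcontrol by more than 2-fold in the 3-miRNA mixed group. It had 16 and 12 counts in miRcontrol, 3 and 2 in the 3-miRNA mixed group, 6 and 1 in miR92b_inhibitor, 7 and 17 in miR3124_mimic and 6 and 15 in miR200b_mimic. The log2 fold change was -2.52 (SE 0.70, adjusted p = 0.00288) in the 3-miRNA mixed group, with a ratio of miRcontrol to the 3-miRNA mixed group of 6 (95% exact interval 2.29 to 19.9) that covers counting error only. In miR92b_inhibitor it was -2.00 (SE 0.66, adjusted p = 0.0138), but -1.81 with an adjusted p of 0.104 without replicate 1 of miRcontrol and -1.20 with an adjusted p of 0.257 without replicate 2 of miR92b_inhibitor. In miR200b_mimic it was -0.27 (adjusted p = 0.728). A same-strand gene shares 10.79% of the CLDN7 exon length. OCLN (occludin) had 0.39 (SE 0.11, adjusted p = 0.00494) in miR200b_mimic, which became 0.31 with an adjusted p of 0.0822 without replicate 2 of miRcontrol, and TJP1 (ZO-1) was not called in any comparison, with log2 fold changes from 0.03 to 0.40 against miRcontrol. TJP3 (ZO-3) was not tested. It had 2 and 2 counts in miRcontrol, 3 and 4 in the 3-miRNA mixed group, 0 and 0 in miR92b_inhibitor, 7 and 18 in miR3124_mimic and 5 and 1 in miR200b_mimic, which put miR3124_mimic above miRcontrol by a ratio of 6.62 (95% exact interval 2.29 to 26.2).

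CRB3, a Crumbs protein of the apical membrane encoded at chr19:6463777-6467221, had the largest change of all 29 tested members. It had 1 and 1 counts in miRcontrol, 51 and 34 in the 3-miRNA mixed group, 4 and 2 in miR92b_inhibitor, 1 and 0 in miR3124_mimic and 94 and 110 in miR200b_mimic. The rise from 1 count in each miRcontrol library amounted to a ratio of 114 (95% exact interval 31.0 to 944) in miR200b_mimic and of 39.7 (95% exact interval 10.7 to 333) in the 3-miRNA mixed group, where the intervals cover counting error only. The adjusted p-values were 1.27e-15 and 7.3e-10. CRB3 stayed near the floor in miR3124_mimic and miR92b_inhibitor. Per kilobase of exon, its level in miR200b_mimic was 4.20 CPM, against 6.27 for PARD6B and 3.40 for LLGL2 in the same libraries.

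PARD6B, the Par6 adaptor that links CDC42 to atypical protein kinase C, rose with both mimics and their mixture. Its levels were 8.93 and 7.94 CPM in miRcontrol, 29.5 and 29.5 in the 3-miRNA mixed group, 8.99 and 10.7 in miR92b_inhibitor, 21.9 and 22.2 in miR3124_mimic and 28.1 and 31.2 in miR200b_mimic. The rises were 1.38 (SE 0.11, adjusted p = 5.76e-15) in miR3124_mimic, 1.82 (SE 0.11, adjusted p = 2.08e-19) in miR200b_mimic and 1.81 (SE 0.10, adjusted p = 1.15e-19) in the 3-miRNA mixed group. Its 3′UTR holds the CAGTATT match printed above. LLGL2, a basolateral Lgl protein, was at 10.0 and 10.2 CPM in miRcontrol, 15.6 and 14.3 in the 3-miRNA mixed group, 6.54 and 6.24 in miR92b_inhibitor, 10.4 and 10.4 in miR3124_mimic and 26.2 and 27.7 in miR200b_mimic. It rose by 1.42 (SE 0.10, adjusted p = 8.22e-16) in miR200b_mimic and by 0.56 (SE 0.11, adjusted p = 4.18e-05) in the 3-miRNA mixed group, was at 0.04 in miR3124_mimic (adjusted p = 0.787) and fell in miR92b_inhibitor, at -0.66 (SE 0.13, adjusted p = 6.29e-05). PARD3, the Par3 scaffold, was abundant in every library, and its log2 fold changes ranged from -0.19 in miR3124_mimic to 0.14 in miR92b_inhibitor. Its rise in miR200b_mimic, 0.11 (SE 0.05, adjusted p = 0.0486), became 0.09 with an adjusted p of 0.284 without replicate 2 of miRcontrol and 0.07 with an adjusted p of 0.337 without replicate 1 of miR200b_mimic.

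EPCAM and the matriptase system rose together in miR200b_mimic. EPCAM, the epithelial cell adhesion molecule encoded at chr2:47345158-47387601, was at 0.458 and 0.119 CPM in miRcontrol, 5.70 and 5.27 in the 3-miRNA mixed group, 0.175 and 0.109 in miR92b_inhibitor, 0.410 and 0.339 in miR3124_mimic and 10.2 and 10.1 in miR200b_mimic. The log2 fold change was 5.08 (SE 0.31, adjusted p = 1.12e-18) in miR200b_mimic, a 33.9-fold rise, and 4.20 (SE 0.34, adjusted p = 1.76e-14) in the 3-miRNA mixed group. The 4 libraries of these groups did not overlap with the other 6, which held 2 to 8 counts each. ST14, the membrane serine protease matriptase encoded at chr11:130159562-130210376, was at 0.401 and 0.298 CPM in miRcontrol, 2.49 and 3.28 in the 3-miRNA mixed group, 0.350 and 0.383 in miR92b_inhibitor, 0.410 and 0.396 in miR3124_mimic and 6.80 and 7.88 in miR200b_mimic, and rose by 4.37 (SE 0.34, adjusted p = 3.03e-15) in miR200b_mimic and 3.02 (SE 0.38, adjusted p = 5.81e-09) in the 3-miRNA mixed group. Both Kunitz-type inhibitors of matriptase rose as well. SPINT1 (HAI-1), at chr15:40844018-40858207, was at 1.89 and 2.39 CPM in miRcontrol, 12.3 and 13.7 in the 3-miRNA mixed group, 1.87 and 1.48 in miR92b_inhibitor, 2.12 and 2.55 in miR3124_mimic and 23.7 and 20.9 in miR200b_mimic, and rose by 3.38 (SE 0.16, adjusted p = 1.56e-22) in miR200b_mimic and 2.60 (SE 0.17, adjusted p = 1.89e-17) in the 3-miRNA mixed group. SPINT2 (HAI-2) was the most abundant of the group, at 17.5 and 15.5 CPM in miRcontrol, 96.7 and 95.0 in the 3-miRNA mixed group, 13.5 and 14.5 in miR92b_inhibitor, 23.4 and 22.1 in miR3124_mimic and 129.6 and 134 in miR200b_mimic. It rose by 2.99 (SE 0.07, adjusted p = 1.83e-35) in miR200b_mimic and 2.53 (SE 0.07, adjusted p = 2.76e-32) in the 3-miRNA mixed group, and it was also called higher in miR3124_mimic, by 0.46 (SE 0.09, adjusted p = 1.57e-05). PRSS8 (prostasin), a protease that acts with matriptase, stayed at 3 counts or fewer in every library.

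**Figure D2:**
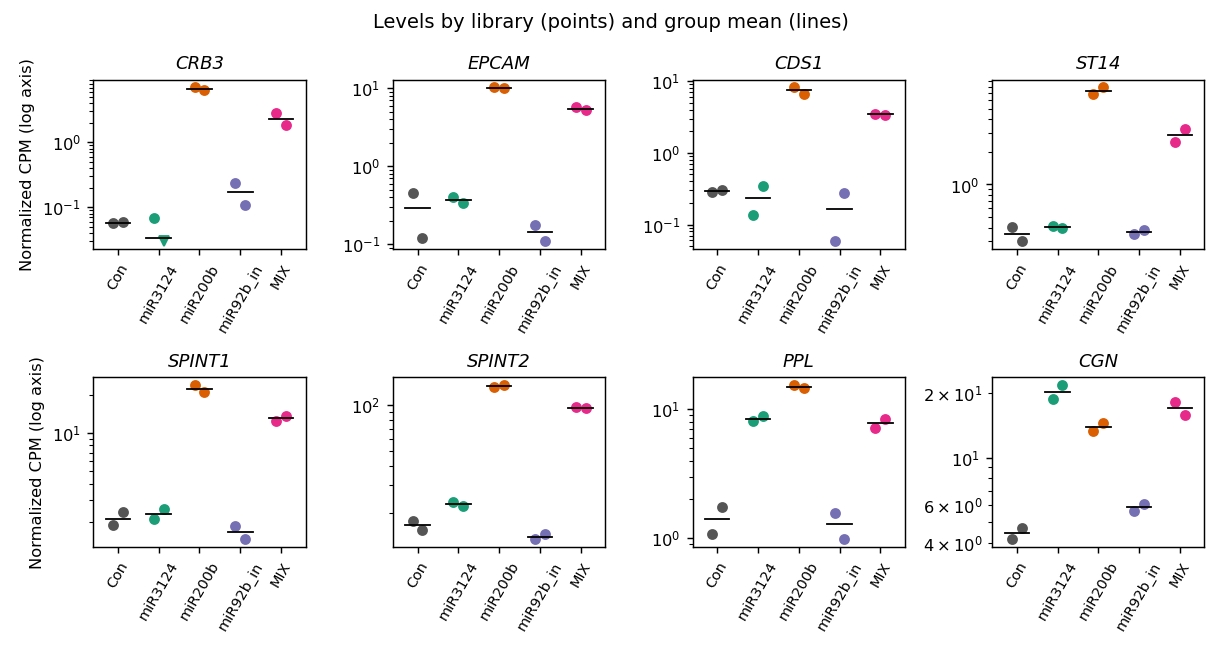
Normalized CPM on a log axis (scaled for each gene) in the 10 libraries, by group label: each point is a library, the line is the mean of the 2 libraries, and the triangle at the bottom of the CRB3 panel stands for a library with 0 counts. In the panels of CRB3, EPCAM, CDS1, ST14, SPINT1 and SPINT2 the miR200b and MIX libraries lie above all others with miR200b highest, whereas for PPL and CGN the miR3124 libraries are raised too.

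Of the trafficking and lipid genes, CDS1 was the only one tested. The gene, at chr4:84582979-84651338, encodes a CDP-diacylglycerol synthase that supplies phosphatidylinositol. It was at 0.286 and 0.298 CPM in miRcontrol, 3.48 and 3.39 in the 3-miRNA mixed group, 0.0584 and 0.274 in miR92b_inhibitor, 0.137 and 0.339 in miR3124_mimic and 8.15 and 6.67 in miR200b_mimic. The rise was 4.62 (SE 0.36, adjusted p = 3.87e-15) in miR200b_mimic and 3.52 (SE 0.40, adjusted p = 2.91e-10) in the 3-miRNA mixed group, and miR3124_mimic and miR92b_inhibitor overlapped or lay below miRcontrol. RAB25, an epithelial Rab GTPase, had 1 count in 1 miRcontrol library and 0 in the other 9, and MAL2, a protein of apical transport, was listed at 0 in all 10. AP1M2, the epithelial subunit of the AP-1 clathrin adaptor, had 0 and 0 counts in miRcontrol, 0 and 0 in the 3-miRNA mixed group, 3 and 1 in miR92b_inhibitor, 0 and 2 in miR3124_mimic and 5 and 11 in miR200b_mimic. Its mean level in miR200b_mimic was 2.87-fold that of 3 counts per library in miRcontrol, a value given without an interval for counting error.

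The desmosome genes were already expressed in miRcontrol, and 5 of the 6 rose in miR200b_mimic, where 21.4% of all tested genes rose. DSP (desmoplakin), which anchors keratin, was at 138 and 129 CPM in miRcontrol, 258 and 266 in the 3-miRNA mixed group, 97.9 and 99.7 in miR92b_inhibitor, 124 and 122 in miR3124_mimic and 332 and 329.9 in miR200b_mimic. It rose by 1.31 (SE 0.04, adjusted p = 9.77e-30) in miR200b_mimic and by 0.97 (SE 0.04, adjusted p = 1.44e-24) in the 3-miRNA mixed group. JUP (plakoglobin) was at 43.3 and 47.5 CPM in miRcontrol, 49.9 and 51.5 in the 3-miRNA mixed group, 26.1 and 25.7 in miR92b_inhibitor, 35.1 and 38.0 in miR3124_mimic and 101 and 107 in miR200b_mimic. It rose by 1.20 (SE 0.06, adjusted p = 4.2e-22) in miR200b_mimic and fell in miR92b_inhibitor, at -0.81 (SE 0.07, adjusted p = 6.64e-13), and in miR3124_mimic, at -0.31 (SE 0.07, adjusted p = 0.000146). In the 3-miRNA mixed group JUP was close to miRcontrol, at 0.16 (SE 0.06, adjusted p = 0.0376), a call that was lost without replicate 1 of miRcontrol (0.09 with an adjusted p of 0.389) and without either library of the 3-miRNA mixed group.

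The plakophilins among the members, PKP2 and PKP3, which bind desmosomal cadherins to desmoplakin, rose too. PKP3 was at 34.7 and 33.2 CPM in miRcontrol, 98.8 and 88.7 in the 3-miRNA mixed group, 22.5 and 20.7 in miR92b_inhibitor, 28.3 and 28.8 in miR3124_mimic and 150.4 and 165 in miR200b_mimic, and rose by 2.22 (SE 0.06, adjusted p = 4.91e-32) in miR200b_mimic and 1.46 (SE 0.06, adjusted p = 2.86e-24) in the 3-miRNA mixed group. PKP2 was at 47.2 and 45.8 CPM in miRcontrol, 76.0 and 76.0 in the 3-miRNA mixed group, 42.0 and 33.8 in miR92b_inhibitor, 42.1 and 41.0 in miR3124_mimic and 96.4 and 103 in miR200b_mimic, and rose by 1.10 (SE 0.06, adjusted p = 8.88e-20) in miR200b_mimic and 0.71 (SE 0.06, adjusted p = 4.61e-13) in the 3-miRNA mixed group. Both were lower in miR92b_inhibitor, at -0.66 (SE 0.08, adjusted p = 5.61e-09) for PKP3 and -0.30 (SE 0.07, adjusted p = 0.000699) for PKP2, of which the second became -0.15 with an adjusted p of 0.180 without replicate 2 of miR92b_inhibitor. In miR3124_mimic PKP3, EVPL, PKP2 and DSP were called lower, at -0.25, -0.23, -0.17 and -0.12. Without replicate 1 of miRcontrol the calls of DSP (-0.08 with an adjusted p of 0.287), PKP2 (-0.15 with an adjusted p of 0.191) and PKP3 (-0.22 with an adjusted p of 0.0604) were lost, and without replicate 2 that of EVPL (-0.18 with an adjusted p of 0.117).

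The 2 plakins of the cornified envelope parted. PPL (periplakin) was at 1.09 and 1.73 CPM in miRcontrol, 7.19 and 8.45 in the 3-miRNA mixed group, 1.58 and 0.985 in miR92b_inhibitor, 8.06 and 8.83 in miR3124_mimic and 15.4 and 14.6 in miR200b_mimic. It rose by 2.59 (SE 0.21, adjusted p = 2.02e-14) in miR3124_mimic, 3.41 (SE 0.20, adjusted p = 1.22e-19) in miR200b_mimic and 2.47 (SE 0.21, adjusted p = 1.46e-13) in the 3-miRNA mixed group, and was at -0.14 in miR92b_inhibitor (adjusted p = 0.776). EVPL (envoplakin), its partner, did not rise in any group. Its log2 fold changes were -0.23, -0.14, -0.39 and -0.18 in miR3124_mimic, miR200b_mimic, miR92b_inhibitor and the 3-miRNA mixed group, with adjusted p-values of 0.00914, 0.134, 3.67e-05 and 0.0371. Its call in the 3-miRNA mixed group became -0.13 with an adjusted p of 0.283 without replicate 2 of miRcontrol.

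**Figure D3:**
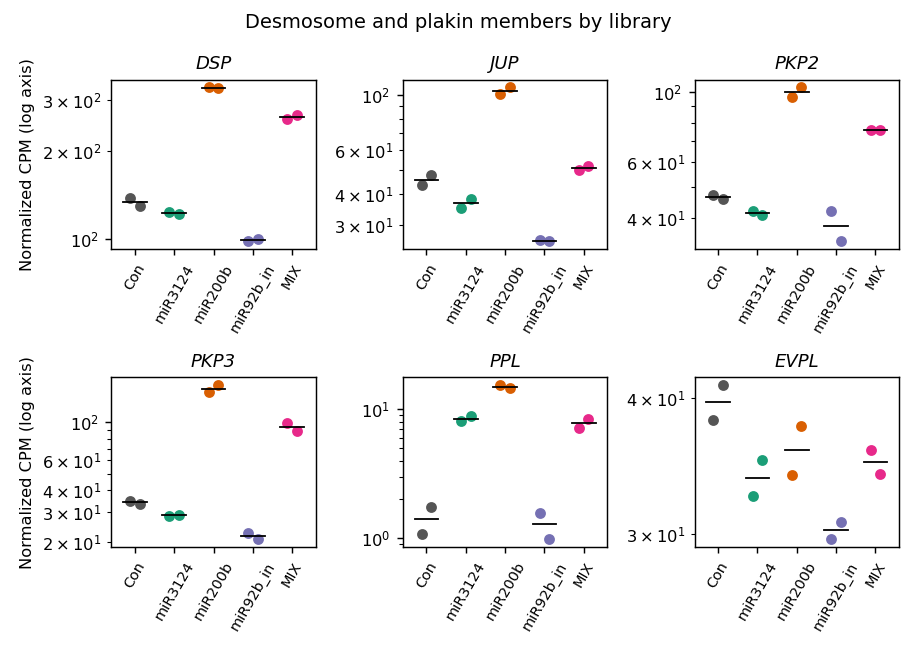
Normalized CPM on a log axis (scaled for each gene) of the 6 desmosome and plakin members in the 10 libraries, by group label: points are libraries and lines are means of 2. DSP, JUP, PKP2 and PKP3 have their highest mean in miR200b and their lowest in miR92b_in, PPL is raised in miR3124, miR200b and MIX, and the EVPL panel spans a narrow range with miRcontrol highest.

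Compared directly with miR200b_mimic, the 3-miRNA mixed group had lower levels of most members. There 19 of the 29 were lower and 1 was higher (CGN), where 20.4% of all tested genes were lower and 18.2% were higher. The median log2 fold change was -0.46 over the members and 0.0064 over all tested genes. This comparison shares the miR200b_mimic libraries with the comparison against miRcontrol. CRB3, EPCAM, ST14, CDS1 and ELF3 entered through groups in which they are high, which may add to the number of lower members. Restricting to the 21 members that never went below 10 counts left 12 lower and 1 higher, with a median of -0.33. The 4 genes that had risen the most in miR200b_mimic were picked by these same libraries, which favours lower values in the 3-miRNA mixed group. Their differences were -1.52 (SE 0.26, adjusted p = 4.14e-06) for CRB3 and -0.89 (SE 0.18, adjusted p = 8.13e-05) for EPCAM. For CDS1 and ST14 the differences were -1.10 (SE 0.23, adjusted p = 0.000110) and -1.35 (SE 0.23, adjusted p = 3.77e-06). JUP and MARVELD2 were lower as well, at -1.04 (SE 0.06, adjusted p = 8.11e-20) and -1.15 (SE 0.15, adjusted p = 1.2e-08). ELF3 and CLDN7 were lower, at -2.38 (SE 0.67, adjusted p = 0.00360) and -2.25 (SE 0.74, adjusted p = 0.0130), and these calls were lost without replicate 2 of the 3-miRNA mixed group (-1.96 with an adjusted p of 0.0798 and -1.98 with an adjusted p of 0.110). PARD6B, ESRP2 and CLDN1 were not called different, at -0.01 (SE 0.09), -0.07 (SE 0.09) and 0.07 (SE 0.05). The call of CGN, at 0.28 (SE 0.11, adjusted p = 0.0448), was lost without replicate 1 of the 3-miRNA mixed group (0.17) and without either library of miR200b_mimic. With all libraries kept, it was lost with no filter on low counts (0.27 with an adjusted p of 0.0879) and with the DESeq2 Wald test (0.28 with an adjusted p of 0.184). The amount of miR-200b-3p mimic delivered in the 3-miRNA mixed group and the presence of the other 2 RNAs cannot be told apart in this design.

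**Figure D4:**
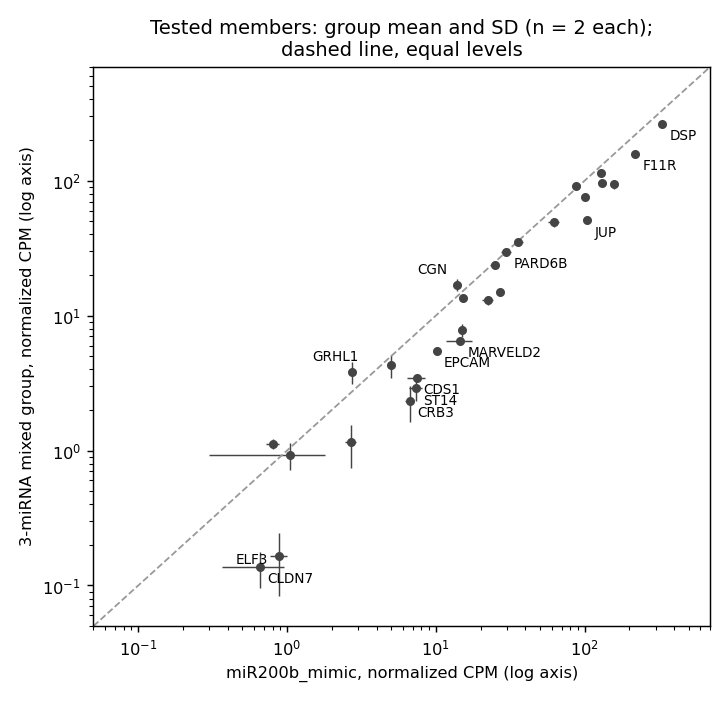
Mean normalized CPM of each tested member in miR200b_mimic (horizontal, log axis) against the 3-miRNA mixed group (vertical, log axis), with error bars of 1 SD over 2 libraries and a dashed line of equal levels. Most points, among them CRB3, EPCAM, CDS1, ST14 and JUP, lie below the line, whereas PARD6B lies on it and CGN and GRHL1 above it.

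Against miR3124_mimic, the 3-miRNA mixed group had 18 members higher and 2 lower (CLDN7 and CGN), where 25.3% of all tested genes were higher and 23.8% were lower. Both lower calls rested on single libraries. CLDN7 was at -2.37 (SE 0.72, adjusted p = 0.00539), and at -1.75 with an adjusted p of 0.161 without replicate 2 of miR3124_mimic and -2.10 with an adjusted p of 0.0650 without replicate 2 of the 3-miRNA mixed group. CGN was at -0.27 (SE 0.10, adjusted p = 0.0315), and at -0.15 with an adjusted p of 0.408 and -0.16 with an adjusted p of 0.325 without the same libraries, and its call was also lost with the DESeq2 Wald test (-0.26 with an adjusted p of 0.186). miR200b_mimic had 21 members higher than miR3124_mimic and 2 lower (GRHL1 and CGN), where 29.9% of all tested genes were higher and 27.9% were lower. CRB3, EPCAM, ST14, CDS1 and ELF3 passed the filter through groups in which they are high, which may add to the higher members. Among the 21 members with at least 10 counts in every library, the 3-miRNA mixed group had 14 higher and 1 lower than miR3124_mimic. In miR200b_mimic 15 of these were higher and 2 lower. The medians over the members were 0.81 in the first comparison and 1.37 in the second. The first was 0.42 without replicate 1 of miR3124_mimic and 0.42 to 0.64 over all fits without 1 library, and with at least 10 counts in every library the medians were 0.46 and 0.86. MARVELD2, which moved in opposite directions with the 2 mimics, differed by 3.01 (SE 0.19, adjusted p = 2.07e-18) between them. PPL, which rose with both, was higher in miR200b_mimic by 0.82 (SE 0.14, adjusted p = 2.23e-06), and the 3-miRNA mixed group did not pass the test against miR3124_mimic (-0.11 (SE 0.15, adjusted p = 0.571)).

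Promoter windows of 300 bases, 250 before to 50 after a RefSeq start (GRCh38.p14), were available here for 21 of the 40 members, in 31 windows. Windows of the other members were not in the set used, which does not mean that RefSeq lacks their starts. They were searched for the E-box CAGGTG and its reverse complement CACCTG. The motif occurred in 20.6% of all 35116 windows, and in 15 of the 31 member windows, which belonged to 14 genes. A count of 5 or more was found in 33 windows of the whole table, or 0.094%, and 2 of these were member windows, those of CRB3 and of 1 start of CLDN7. These are shown with CDS1 and SPINT1, which have 1 motif each, and the motif is in capitals. No counts were measured over these windows.
CRB3 promoter, chr19:6464021-6464320, plus strand: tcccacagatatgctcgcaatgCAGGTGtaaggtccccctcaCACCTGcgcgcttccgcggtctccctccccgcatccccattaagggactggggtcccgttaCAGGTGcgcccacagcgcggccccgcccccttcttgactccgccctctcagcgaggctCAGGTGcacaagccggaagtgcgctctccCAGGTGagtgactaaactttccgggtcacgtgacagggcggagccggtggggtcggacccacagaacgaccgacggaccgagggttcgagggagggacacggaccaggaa
CLDN7 promoter, chr17:7262429-7262728, minus strand: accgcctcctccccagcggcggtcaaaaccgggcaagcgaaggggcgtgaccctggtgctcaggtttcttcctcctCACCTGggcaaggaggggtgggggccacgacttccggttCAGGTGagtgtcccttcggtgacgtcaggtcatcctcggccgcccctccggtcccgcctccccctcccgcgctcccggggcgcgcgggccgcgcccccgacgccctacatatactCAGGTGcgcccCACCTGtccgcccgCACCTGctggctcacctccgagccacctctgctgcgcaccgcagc
CDS1 promoter, chr4:84582877-84583176, plus strand: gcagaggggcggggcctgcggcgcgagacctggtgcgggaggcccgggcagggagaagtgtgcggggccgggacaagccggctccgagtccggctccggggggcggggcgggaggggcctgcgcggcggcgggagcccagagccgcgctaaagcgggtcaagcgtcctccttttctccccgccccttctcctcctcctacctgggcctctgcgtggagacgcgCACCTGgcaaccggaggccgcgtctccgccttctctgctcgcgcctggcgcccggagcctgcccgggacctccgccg
SPINT1 promoter, chr15:40844227-40844526, plus strand: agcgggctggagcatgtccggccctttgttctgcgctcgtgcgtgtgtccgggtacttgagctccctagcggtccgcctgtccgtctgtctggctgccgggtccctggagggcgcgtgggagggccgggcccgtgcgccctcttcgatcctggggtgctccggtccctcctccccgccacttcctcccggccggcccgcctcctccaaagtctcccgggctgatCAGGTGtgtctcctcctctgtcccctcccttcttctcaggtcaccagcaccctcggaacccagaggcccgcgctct
CRB3 and CLDN7 had the same number of motifs, and in miR200b_mimic CRB3 rose from the floor while CLDN7 was at -0.27 (adjusted p = 0.728). Of the 16 tested members with a window, 10 held the motif in any window, against 23.8% of tested genes with a window. Of these 10, ELF3, OCLN, CRB3, SPINT1, CDS1, DSP and JUP rose in miR200b_mimic, and CLDN3, CLDN7 and TJP1 were not called. CGN, LSR and MARVELD2, which rose in miR200b_mimic by 1.65, 1.40 and 1.88, held no match in their windows. CLDN1, which also rose, held none, as did GRHL1 and CLDN4, which were not called. AP1M2 held 3 and went from 0 and 0 counts in miRcontrol to 5 and 11 in miR200b_mimic. RAB25 held 2 and was at the floor in all groups. The part of the motif in these changes was not tested.

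Repressors of epithelial genes, among them ZEB1 and ZEB2, which bind this motif, were measured in the same libraries. ZEB1 was at 63.3 and 62.9 CPM in miRcontrol, 29.7 and 28.5 in the 3-miRNA mixed group, 70.7 and 74.7 in miR92b_inhibitor, 59.4 and 56.4 in miR3124_mimic and 25.9 and 25.6 in miR200b_mimic, and fell in miR200b_mimic, at -1.29 (SE 0.07, adjusted p = 3.55e-21), and in the 3-miRNA mixed group, at -1.12 (SE 0.06, adjusted p = 9.67e-20). ZEB2 was at 33.8 and 30.8 CPM in miRcontrol, 10.3 and 10.1 in the 3-miRNA mixed group, 39.9 and 37.7 in miR92b_inhibitor, 45.9 and 47.2 in miR3124_mimic and 6.95 and 6.44 in miR200b_mimic, and fell at -2.27 (SE 0.11, adjusted p = 3.61e-23) in miR200b_mimic and -1.66 (SE 0.09, adjusted p = 3.61e-20) in the 3-miRNA mixed group. SNAI2 (Slug), which binds the same motif and whose 3′UTR also holds a CAGTATT match, rose in both, at 0.91 (SE 0.08, adjusted p = 8.25e-14) in miR200b_mimic and 0.52 (SE 0.08, adjusted p = 3.56e-07) in the 3-miRNA mixed group. Of the 7 repressors listed, 3 fell and 1 rose in miR200b_mimic, where 19.1% of all tested genes fell and 21.4% rose. In the 3-miRNA mixed group 2 fell (ZEB1 and ZEB2) and 2 rose (SNAI1 and SNAI2), where 21.1% fell and 21.5% rose. SNAI1 (Snail) had 8 and 12 counts in miRcontrol, 33 and 27 in the 3-miRNA mixed group and 10 and 24 in miR200b_mimic. It had 21 and 19 in miR92b_inhibitor and 18 and 41 in miR3124_mimic. SNAI2 fell from 23.1 and 23.3 CPM in miRcontrol to 11.2 and 10.2 in miR3124_mimic. In miRcontrol, miR200b_mimic and the 3-miRNA mixed group, mean levels were 8.22, 7.12 and 7.21 CPM for TWIST1 and 7.51, 6.31 and 7.14 for TWIST2. Those of TCF4 were 10.8, 8.14 and 12.8 CPM. Most members rose in the groups in which ZEB1 and ZEB2 fell, and the part of the repressors in the rise was not tested.

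Levels were compared between members per kilobase of exon length. In miRcontrol the highest were PARD3 at 18.3, CLDN1 at 17.1 and DSP at 13.2 CPM per kilobase. In miR200b_mimic the order was F11R at 43.1, PKP3 at 41.7, DSP at 32.8, SPINT2 at 25.3 and CLDN1 at 23.9. EPCAM, CRB3, ST14 and CDS1, which had the largest fold changes, reached 4.03, 4.20, 1.69 and 1.66, so they stayed below these genes in level.

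Genes of the same structures that are not members were taken from lists, whose counts are to be read against the 21.4% of all tested genes that rose and the 19.1% that fell in miR200b_mimic. These lists, like the members, were chosen with earlier results of these data known. Among 17 tested genes of epithelial identity, 15 rose and 1 fell (CD24) in miR200b_mimic. In the 3-miRNA mixed group 10 rose and 1 fell, where 21.5% of all tested genes rose and 21.1% fell. CDH1, KDF1, S100A14, BSPRY and TTC39A passed the filter on low counts only through miR200b_mimic or the 3-miRNA mixed group, where they are high. Their inclusion adds to the count of rises in miR200b_mimic. CDH1, the cadherin of adherens junctions, rose from 3 and 2 counts in miRcontrol to 146 and 157 in miR200b_mimic, a ratio of 67.4 (95% exact interval 28.6 to 209), and to 46 and 36 in the 3-miRNA mixed group. Of 16 tested genes of tight junctions, 6 rose and 3 fell in miR200b_mimic, led by PATJ, a Crumbs complex scaffold, at 2.55 (SE 0.08, adjusted p = 1.35e-30). Of 13 tested polarity genes, 3 rose and 5 fell, led by CDC42, the polarity GTPase, at -0.99 (SE 0.04, adjusted p = 1.59e-24). Of 5 tested desmosome genes, 3 rose and 1 fell. The desmosomal cadherin DSG2 was at 1.37 (SE 0.04, adjusted p = 1.13e-30). The largest change was the fall of the plakophilin PKP1, at -1.53, from 22 and 11 counts in miRcontrol to 7 and 3 in miR200b_mimic. The members of the polarity list rose in miR200b_mimic, 4 of 4. Of these, CRB3 was tested only through groups in which it is high. The call of PARD3 was also lost in several fits that kept all libraries, among them the DESeq2 Wald test (0.12 with an adjusted p of 0.126). The other polarity genes were called in both directions, and the difference between the lists was not tested.

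The count floor bounds what can be said of 7 members. GRHL2, OVOL1, OVOL2, EHF, PRSS8, RAB25 and MAL2 had at most 3 counts in each library of all 5 groups, and no fold change is given for them. Single counts below this floor were recorded for some of them, and no difference between groups could be tested at that depth. The other 4 members that were not tested, ESRP1, GRHL3, TJP3 and AP1M2, passed 3 counts in at least 1 library. Of the tested members, CRB3 was at the floor in miRcontrol and miR3124_mimic, CLDN7 in the 3-miRNA mixed group and EPCAM in miR92b_inhibitor.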

How the data were processed

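The authors trimmed adapters and low-quality reads, mapped reads to GRCh38 with TopHat (per the labels) and deposited raw read counts per gene, 1 table per library, from directional libraries. The counting tool, its strand setting and the annotation are not given in the sources used here, and no normalization had been applied to the deposited counts. The tables have 58173 rows each, and 5771 rows with a repeated symbol were added to the first of that symbol. Totals were 13587666 to 18503890 counts, so a gene with few counts is measured with large counting error.

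Genes were filtered with filterByExpr, normalized by RLE (factors 0.985 to 1.016) and tested with the quasi-likelihood test of edgeR 4.0.16 (R 4.3.3), with all 10 libraries in 1 fit without covariates and Benjamini-Hochberg adjustment over 14884 genes. The common dispersion was 0.000751. Standard errors were taken from the log2 fold change and its F statistic. In 7 comparisons, a gene was called at an adjusted p under 0.05, and a fold change of at least 2 was counted besides. The floor was 3 counts or fewer in both libraries of a group. Ratios against such a group use summed counts with an exact (Clopper-Pearson) 95% interval, which covers counting error only.

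Per-library values were given for members that met both limits in a comparison with miRcontrol, and the other members by ranges or examples. The chi-square of the counts per degree of freedom between the libraries of a group was 1.77 to 2.76, so the pairs differed beyond counting error. The members and the lists were chosen with earlier results of these data known. Alternatives were TMM normalization, library totals, no filter, at least 10 counts in every library, only the 2 groups compared, a replicate block, the DESeq2 1.42.0 Wald test, the highest of repeated rows and leaving out each library.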

Additional observations from a re-analysis of the deposited data

How the results depend on the processing

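Of 2148 values of single members under the alternatives, 2013 kept their direction and their side of the threshold, 88 kept their direction but were no longer called and 7 became called. The other 40 changed sign while not called under either setting, and 0 called values did. With a fold change of at least 2, at an adjusted or an unadjusted p under 0.05, the members called were 14 in the 3-miRNA mixed group, 5 in miR3124_mimic and 1 in miR92b_inhibitor against miRcontrol, and 8 in the 3-miRNA mixed group against miR200b_mimic and 12 against miR3124_mimic. At an adjusted p, 4.67%, 8.13% and 1.91% of all tested genes were called in the first 3. Of the 14884 tested genes, 337 were higher and 175 lower in the 3-miRNA mixed group against miR200b_mimic. Against miR3124_mimic, 350 were higher and 584 lower. With at least 10 counts in every library, 13 members were called in the 3-miRNA mixed group against miR200b_mimic, since only 21 were tested.

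Medians over the members depend on which members pass the filter. With only the 2 groups compared, the median was 0.041 in miR3124_mimic, 1.53 in miR200b_mimic and -0.35 in miR92b_inhibitor. With no filter on low counts it was -0.23 in miR92b_inhibitor, 0.85 in the 3-miRNA mixed group, 0.47 in that group against miR3124_mimic and 1.05 in miR200b_mimic against miR3124_mimic. With at least 10 counts in every library it was 1.30 in miR200b_mimic, 0.86 in the 3-miRNA mixed group, -0.33 in that group against miR200b_mimic and 0.46 against miR3124_mimic, and 0.86 in miR200b_mimic against miR3124_mimic, and with library totals only the last was 1.33. From the highest of its repeated rows alone, OCLN was at 12.6 CPM in miR3124_mimic, 14.7 in miR200b_mimic and 8.29 in miR92b_inhibitor, against 13.3, 15.3 and 9.05 from the sum.

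Leaving out each library in turn, the median was 0.028 to 0.21 in miR3124_mimic, 1.43 to 1.60 in miR200b_mimic, -0.35 to -0.28 in miR92b_inhibitor, 0.81 to 0.92 in the 3-miRNA mixed group, -0.58 to -0.44 in that group against miR200b_mimic, 0.42 to 0.64 against miR3124_mimic and 1.36 to 1.497 in miR200b_mimic against miR3124_mimic, and 9 to 12 members were called in miR92b_inhibitor. A lone library left in a group is assumed to vary like the other groups.

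Differences between the 2 libraries of a group, taken in replicate order, correlated between groups at -0.0237 to 0.0679 over 14884 genes. No pairing by replicate number was seen, but with 2 libraries per group this cannot exclude a shared batch. With the replicate block, 22 members were called in the 3-miRNA mixed group, 14 in each of miR3124_mimic and miR92b_inhibitor and 23 in miR200b_mimic, and the median in miR200b_mimic was 1.42. Causes of these shifts were not tested. Counts of 10 or fewer limit what can be said of ELF3, CLDN7 and the members at the floor.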
